A study of Mus musculus with 6 samples.

Results

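The neuregulin and ErbB signaling genes described here are 8 genes of the 46983 listed for these embryonic mouse hearts. They were chosen by name for their place in the pathway, as the neuregulins Nrg1, Nrg2 and Nrg4, the EGF-like ligand Hbegf and the receptors Egfr, Erbb2, Erbb3 and Erbb4, and all 8 passed the filter on low counts. RNA from whole hearts at E13.5 was sequenced, with 1 heart in each library, from 3 embryos labeled TnnT2Cre;Wt1flox (mutant, replicates 1, 5 and 10) and 3 embryos labeled wild type (replicates 2, 3 and 5), all of the strain C57BL/6 x DBA/2. According to the study's methods the wild type embryos also carried floxed Wt1 alleles and differed from the mutants in lacking Cre, so the groups differ by the presence of Cre as well as by the deletion. The Cre is driven by the promoter of Tnnt2, the cardiac troponin T gene, which is active in cardiomyocytes, while the RNA came from all cells of the heart. The study also reported that a fraction of the epicardial cells at E13.5 came from a Tnnt2-expressing lineage. It expected Wt1 to be deleted in that fraction too, so the deletion is not confined to cardiomyocytes. The question asked of these genes was whether their transcripts differed between hearts with and without the deletion of Wt1 in the troponin lineage.

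ErbB receptors are membrane tyrosine kinases that pair when a ligand with an EGF-like domain binds them, and they signal through the RAS to ERK and PI3-kinase cascades. In the embryonic heart, neuregulin 1 made by the endocardium acts on ERBB4 paired with ERBB2 in the myocardium and is required for trabeculation. HB-EGF signals through EGFR and ERBB4 and takes part in shaping the valves, and ERBB3 is known from the cushion mesenchyme and from neural crest derivatives.

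The receptor-binding part of a neuregulin is a short EGF-like domain held by 6 cysteines, and its last segment affects how strongly the ligand binds. The coding sequences of that domain are shown for the neuregulin with the largest difference between the groups and for the one with the fewest reads, with the 6 cysteine codons in capitals, together with the short Erbb4 exon that carries the PI3-kinase binding tyrosine (capitals). All are read 5′ to 3′ from the GENCODE M21 transcripts on GRCm38. Both Nrg1 stretches lie on the minus strand of chromosome 8, in exons 6 and 7 of Nrg1-206 (chr8:31838298-31849398, alpha-type end, in 4 of 12 coding transcripts) and in exons 2 and 3 of Nrg1-201 (chr8:31837698-31849398, beta-type end, in 8 of 12).
Nrg1-206, 120 bases: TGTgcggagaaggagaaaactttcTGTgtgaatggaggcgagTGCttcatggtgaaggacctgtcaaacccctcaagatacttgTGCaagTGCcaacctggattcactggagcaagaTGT
Nrg1-201, 120 bases: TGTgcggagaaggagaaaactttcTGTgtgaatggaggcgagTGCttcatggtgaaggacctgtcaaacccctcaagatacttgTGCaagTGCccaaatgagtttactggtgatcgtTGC
Nrg4-204, 111 bases: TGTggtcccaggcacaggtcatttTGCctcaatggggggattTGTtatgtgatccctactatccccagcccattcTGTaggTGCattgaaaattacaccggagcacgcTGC
Erbb4-201, 48 bases: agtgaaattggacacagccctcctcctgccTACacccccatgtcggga
The Nrg1 stretches share their first 94 bases, and 14 of the remaining 26 are the same. The Nrg4 stretch spans exons 4 and 5 (chr9:55242177-55280969, minus strand) and is present in 2 of 2 coding transcripts. The Erbb4 exon, exon 26 of 28 (chr1:68043908-68043955, minus strand), is present in 1 of 3 coding transcripts and separates the CYT-1 form, which binds PI3-kinase directly, from the form without it. The deposited values count all reads of a gene together, so none of the values below separates these forms.

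The libraries held between 44244665 and 56373393 counts. The targeted gene, Wt1, was at 40.0, 32.9 and 20.0 CPM (counts scaled to the library total with TMM factors) in wild type replicates 2, 3 and 5 and at 17.7, 33.3 and 35.7 CPM in mutant replicates 1, 5 and 10, so the groups overlapped, and these counts pool deleted with intact alleles, so they check no label. Wild type replicate 5 stood apart when each gene's log2 CPM was taken relative to its mean over all hearts. These relative levels fell with gene length in that heart (Spearman rho = -0.556 across 11795 genes, which are not independent replicates). In the other hearts rho ran from -0.0622 to 0.464, and since replicate 5 enters the mean, those values depend on it too. Wild type replicate 5 gave the lowest wild type CPM for 7 of the 8 genes, Nrg4 being the exception. Values without it are given beside some of the genes and lists that it moves.

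Erbb2 was the most abundant of the 8 transcripts and the neuregulins were the least abundant. Compared per length within a heart, by the deposited FPKM (a count scaled by the gene's length and the library's total), the order was Erbb2 (50.4 ± 5.49, SD over 6 hearts), Erbb4 (7.61 ± 1.65), Hbegf (6.44 ± 0.787), Erbb3 (3.70 ± 0.767), Egfr (3.05 ± 0.991), Nrg1 (1.65 ± 0.399), Nrg4 (0.703 ± 0.228) and Nrg2 (0.597 ± 0.129). Erbb2 FPKM exceeded Erbb4 FPKM by 6.76-fold and in 6 of 6 hearts. The steps from Hbegf to Erbb3 (1.76-fold), from Egfr to Nrg1 (1.82-fold) and from Nrg1 to Nrg4 (2.41-fold) also held in 6 of 6 hearts. For these 4 steps the exact sign-flip permutation test (two-sided) gave p = 0.03125, the smallest that 6 hearts allow, and 0.0547 after adjustment over the 7 neighboring pairs. The remaining steps did not hold in every heart. These were Erbb4 over Hbegf (1.16-fold, higher in 4 of 6 hearts, p = 0.1875 by the same exact test), Erbb3 over Egfr (1.24-fold, 5 of 6, exact p = 0.09375) and Nrg4 over Nrg2 (1.15-fold, 4 of 6, exact p = 0.5). No step had an adjusted p under 0.05, and the neighbors were set by sorting these same values.

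**Figure D1:**
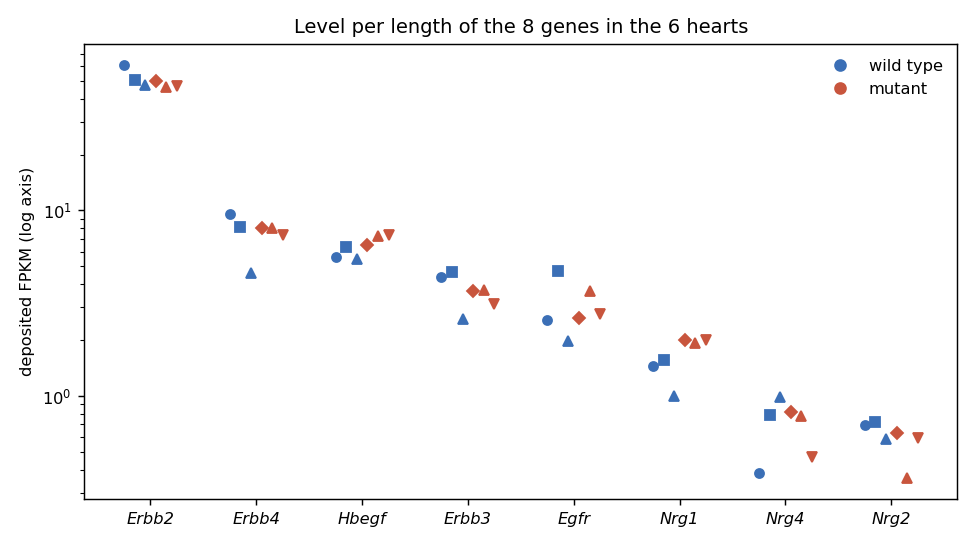
Deposited FPKM of the 8 genes on a log axis, one symbol per heart, in the order of the mean log2 FPKM, with wild type hearts in blue and mutant hearts in red (from left to right, replicates 2, 3 and 5 and replicates 1, 5 and 10). Erbb2 lies between 46.5 and 61.2 FPKM in all 6 hearts, and every other gene lies below 10 FPKM.

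The order below Erbb2 depends on the gene length used. The length implied by the deposited FPKM was 2103 bases for Nrg1, where the annotated exons of all its transcripts cover 10351, and 1081 against 6075 bases for Nrg4, but 6016 in both for Erbb3. Per kilobase of annotated exons, Erbb2 was still the highest (31.7 ± 3.15 CPM per kilobase, SD over 6 hearts), Erbb3 (3.69 ± 0.707), Erbb4 (3.32 ± 0.696) and Hbegf (3.17 ± 0.445) followed with overlapping spreads, and Nrg2 (0.436 ± 0.0918) lay above Nrg1 (0.337 ± 0.0847) and Nrg4 (0.125 ± 0.0397). On that scale Erbb3 exceeded Egfr (0.795 ± 0.250) by 2.25 on the log2 scale (exact sign-flip p = 0.03125, two-sided, unadjusted), whereas by FPKM Erbb3 was the higher in 5 of 6 hearts. A gene's comparison between groups uses the same length on both sides and is not affected by this choice. The trend with gene length is a separate matter. After its removal the log2 fold change was -0.20 for Erbb3, -0.17 for Erbb2, 0.04 for Erbb4 and -0.04 for Egfr. Before, these were -0.11, -0.12, 0.11 and -0.00.

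None of the 8 genes passed the threshold between mutant and wild type hearts. With edgeR's quasi-likelihood test and Benjamini-Hochberg adjustment over 17473 genes, 0 of 8 had an adjusted p under 0.05, as had 0% of all genes tested, and the smallest adjusted p of any gene was 0.0991. At an unadjusted p under 0.05 there were 2 of the 8 (25%), Nrg1 and Hbegf, both higher in the mutant, where 5.73% of all genes lay, 3.14% being higher and 2.59% lower. The same 2 genes (25%) were the ones whose groups did not overlap in CPM, where 11.2% of all genes tested did not overlap and 6.61% did so as higher in the mutant. With DESeq2, 133 of 19282 genes (0.69%) had an adjusted p under 0.05, and none of the 8 was among them. The median log2 fold change was 0.14 over the 4 ligands and -0.06 over the 4 receptors, beside -0.001 over all genes tested. Without wild type replicate 5 these medians were 0.27 and -0.21, with 3 of 4 ligands higher and 4 of 4 receptors lower. The labels do not say whether the embryos came from separate litters, so the p-values measure the spread between these hearts.

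**Figure D2:**
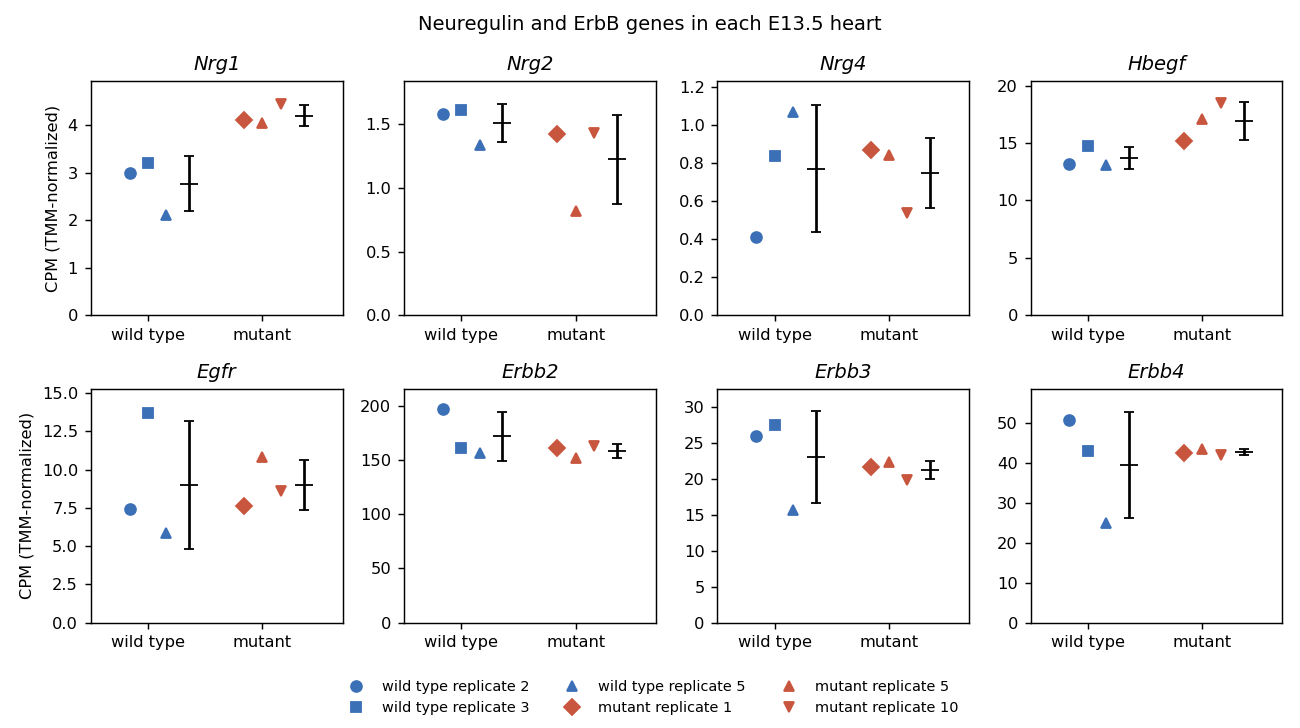
TMM-normalized CPM of each gene in each heart, with the mean and SD of the 3 hearts of each group as bars to the right of the symbols and every axis starting at 0. The mutant symbols lie above every wild type symbol for Nrg1 and Hbegf, and the groups overlap for the other 6 genes.

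Nrg1 (ENSMUSG00000062991, chr8:31814551-32884029 of GRCm38, minus strand) encodes neuregulin 1, the ligand of the endocardium. Its level was 3.001, 3.20 and 2.11 CPM in wild type replicates 2, 3 and 5 and 4.12, 4.04 and 4.45 CPM in mutant replicates 1, 5 and 10, from 93 to 224 counts a library. The lowest mutant heart was above the highest wild type heart, and the mutant hearts lay close together (CV of 5.16%, against 20.9% in the wild type). The log2 fold change was 0.60 ± 0.21 (SE, 95% interval 0.11 to 1.09, a ratio of 1.51), with an unadjusted p = 0.0222 and an adjusted p = 0.765 by edgeR's quasi-likelihood test. An exact permutation test of 3 against 3 hearts cannot go below the 0.1 that it gave here. Without wild type replicate 5 the log2 fold change was 0.44 (unadjusted p = 0.0426, adjusted p = 0.391 by the same edgeR test), and without mutant replicate 10 it was 0.56 (unadjusted p = 0.0660). An antisense gene, Gm26578, covers 4.66% of the exon bases of Nrg1, and the strand setting of the counting was not given in the sources used here, so reads of both genes may be mixed there.

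Hbegf (ENSMUSG00000024486, chr18:36504927-36515805, minus strand) encodes a membrane-bound ligand that is shed to act on EGFR and ERBB4. It was at 13.2, 14.8 and 13.1 CPM in the wild type hearts and at 15.2, 17.1 and 18.5 CPM in the mutant hearts, in the same order of replicates. These groups did not overlap either, although the gap between the highest wild type and the lowest mutant heart was narrow. The log2 fold change was 0.31 ± 0.12 (SE, 95% interval 0.03 to 0.58), with an unadjusted p = 0.0344 and an adjusted p = 0.831 by edgeR's quasi-likelihood test. It lay between 0.24 and 0.38 with a heart left out, and edgeR's unadjusted p = 0.0537 without wild type replicate 5, 0.0946 without wild type replicate 2, 0.0907 without mutant replicate 5 and 0.118 without mutant replicate 10.

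Nrg2 and Nrg4 were close to the limit of what these libraries can resolve. Nrg2 (ENSMUSG00000060275, chr18:36017652-36197380, minus strand), a neuregulin that binds ERBB3 and ERBB4, was at 1.58, 1.62 and 1.34 CPM in the wild type and at 1.424, 0.820 and 1.43 CPM in the mutant hearts. Mutant replicate 5 was the lowest, with 43 counts, and the other 2 mutant hearts lay within the wild type range. The log2 fold change was -0.31 ± 0.30 (SE, adjusted p = 0.985 by edgeR), and -0.09 without mutant replicate 5. Nrg4 (ENSMUSG00000032311, chr9:55220222-55326844, minus strand), a ligand of ERBB4, was at 0.408, 0.835 and 1.07 CPM in the wild type and at 0.866, 0.839 and 0.537 CPM in the mutant, from 23 to 48 counts a library. Its log2 fold change of -0.04 ± 0.42 (SE) had a 95% interval from -1.01 to 0.94, which covers ratios of mutant to wild type from 0.497 to 1.91. Leaving out single hearts moved it between -0.34 and 0.26. The opposite-strand genes Fbxo22 and Gm15625 cover 6.06% and 2.91% of its exon bases.

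Within a heart, the make-up of the ligands was compared as shares of their summed FPKM. Of the summed FPKM of the 4 ligands, Nrg1 made up 17.7%, 16.5% and 12.4% in the wild type and 20.0%, 18.7% and 19.2% in the mutant hearts, and Nrg2 made up 8.55%, 7.65% and 7.21% in the wild type and 6.35%, 3.48% and 5.65% in the mutant hearts. Neither share overlapped between the groups (exact permutation p = 0.1 for each, two-sided, the smallest that 3 against 3 hearts allow). In CPM, the groups did not overlap for 11.2% of all genes tested. The CPM of Nrg2 itself overlapped between the groups. Shares of a sum depend on each other, so they add no separate evidence to the comparison of the single genes. Hbegf held 68.2% ± 0.780 (SD, n = 3) in the wild type and 68.8% ± 2.91 (SD, n = 3) in the mutant. These shares rest on the deposited gene lengths.

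Erbb2 (ENSMUSG00000062312, chr11:98412470-98437716, plus strand) encodes the receptor that binds no known ligand and serves as the partner of the others. It was at 198, 162 and 157 CPM in the wild type and at 161, 152 and 163 CPM in the mutant hearts, a log2 fold change of -0.12 ± 0.12 (SE, 95% interval -0.39 to 0.16, adjusted p = 0.985 by edgeR). Wild type replicate 2 was the highest, the other 5 hearts lay between 152 and 163 CPM, and without that heart the log2 fold change was -0.0016. Erbb2 had the largest counts of the 8 genes, with 6890 to 11129 a library.

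Erbb4 (ENSMUSG00000062209, chr1:68032186-69108059, minus strand), the neuregulin receptor of cardiomyocytes, was at 50.8, 42.8 and 24.8 CPM in the wild type and at 42.4, 43.4 and 41.9 CPM in the mutant hearts. The mutant hearts were nearly alike (CV of 1.77%), and the wild type hearts spanned a wide range (33.7%), with replicate 5 the lowest. Its log2 fold change was 0.11 ± 0.23 (SE, 95% interval -0.42 to 0.63, adjusted p = 0.990 by edgeR) with all hearts and -0.14 without wild type replicate 5, so its direction was set by that heart. Erbb2 FPKM over Erbb4 FPKM was 6.41, 6.21 and 10.4 in the wild type and 6.26, 5.75 and 6.41 in the mutant hearts, again with wild type replicate 5 apart from the other 5 hearts.

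Erbb3 (ENSMUSG00000018166, chr10:128567523-128589652, minus strand), a receptor with little kinase activity of its own, was at 26.0, 27.5 and 15.7 CPM in the wild type and at 21.7, 22.3 and 19.9 CPM in the mutant hearts. All mutant hearts lay below wild type replicates 2 and 3 and above replicate 5. The log2 fold change was -0.11 ± 0.20 (SE, adjusted p = 0.985 by edgeR) with all hearts. Without wild type replicate 5 it was -0.33 (unadjusted p = 0.00743, adjusted p = 0.230 by edgeR), and with DESeq2 on the same 5 hearts also -0.33 (unadjusted p = 0.00417, adjusted p = 0.105). Markers of neural crest glia, one of the cell types in which Erbb3 is known, summed to 7.05, 9.48 and 14.1 CPM in the wild type and 9.39, 9.33 and 5.58 CPM in the mutant hearts, and were highest in the heart in which Erbb3 was lowest. Markers of cushion mesenchyme, another such cell type, summed to 1570, 1538 and 958 CPM in the wild type and 1519, 1606 and 1146 CPM in the mutant hearts. This sum was lowest in that same heart, but its members were not alike. Vcan (216 CPM) and Tbx20 (284 CPM) were lowest there, whereas Sox9, Twist1, Postn and Scx were lowest in mutant replicate 10 (17.1, 29.9, 311 and 7.73 CPM). The part of either cell type in the level of Erbb3 was not tested.

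Egfr (ENSMUSG00000020122, chr11:16752203-16918158, plus strand), the receptor of HB-EGF, was at 7.42, 13.7 and 5.86 CPM in the wild type and at 7.62, 10.8 and 8.58 CPM in the mutant hearts. The means were 9.001 and 9.006 CPM, and the wild type hearts spread over more than the whole mutant range. The log2 fold change was -0.00 ± 0.30 (SE, 95% interval -0.70 to 0.70). It was 0.44 without wild type replicate 3 (unadjusted p = 0.0756 by edgeR) and -0.23 without wild type replicate 5. Among the 4 receptors, Erbb2 made up 78.9% ± 4.84 (SD, n = 3) of the summed FPKM in the wild type and 77.0% ± 1.69 in the mutant (exact permutation p = 0.6, two-sided), and none of the 4 receptor shares separated the groups.

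**Figure D3:**
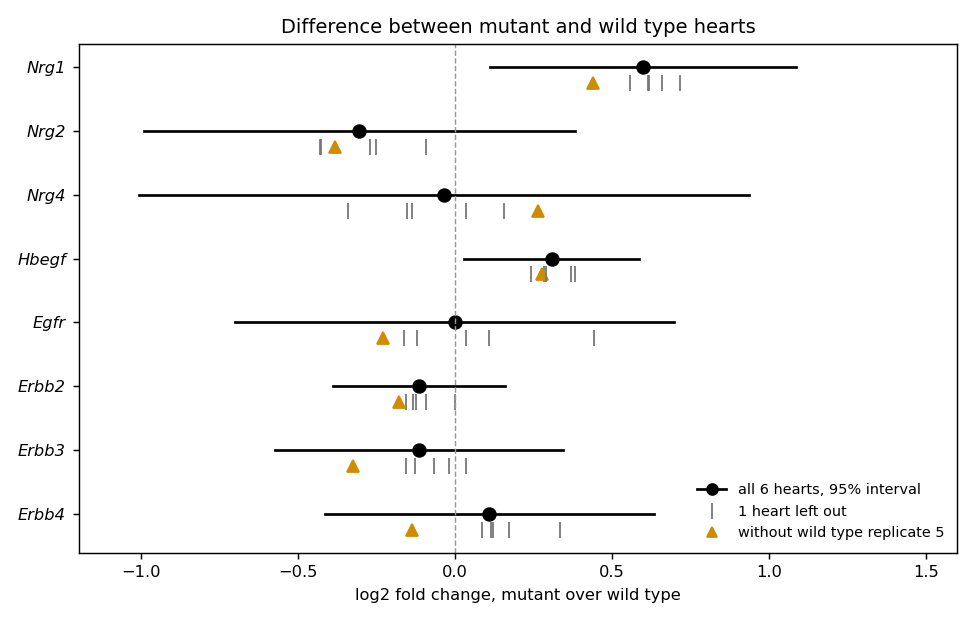
Log2 fold change of mutant over wild type hearts for the 8 genes, with the 95% interval of the edgeR fit on all 6 hearts (black), the fits with a heart left out (gray ticks) and the fit without wild type replicate 5 (triangles). Only the intervals of Nrg1 and Hbegf lie above 0, and the triangle of Erbb4 lies on the other side of 0 from the full fit.

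Cell type markers were read beside these values, since in whole hearts fewer cells of a type and less RNA per cell cannot be told apart. The summed CPM of 9 endocardial and endothelial markers was 1407, 1175 and 946 in the wild type and 1247, 1556 and 1486 in the mutant hearts, with 9 of 9 markers higher in the mutant mean (median log2 fold change 0.30, lowest single p Emcn, 0 of 9 past the adjusted threshold) and overlapping sums (exact permutation p = 0.2, two-sided). Without wild type replicate 5, 8 of 9 were higher and the median was 0.15. Per 1000 CPM of these markers, Nrg1 was at 2.13, 2.72 and 2.23 CPM in the wild type and at 3.30, 2.60 and 2.995 CPM in the mutant hearts, which overlapped (exact p = 0.2). Hbegf was at 9.38, 12.6 and 13.9 CPM in the wild type and at 12.2, 11.0 and 12.4 CPM in the mutant hearts on that scale (exact p = 1.0). Neither ratio separated the groups, and whether the ratios of the 2 genes differ from each other was not tested.

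Macrophage and megakaryocyte markers also moved with the groups. The 6 macrophage markers summed to between 65.2 and 73.3 CPM in the wild type and between 90.7 and 101 CPM in the mutant, with 5 of 6 higher at an unadjusted p under 0.05 (3.14% of all genes lay there), Mrc1 lower and 0 of 6 past the adjusted threshold with edgeR. The 4 megakaryocyte markers summed to 19.8 to 29.9 CPM in the wild type and 32.5 to 46.6 CPM in the mutant. With edgeR, 4 of 4 were higher, 3 of them at an unadjusted p under 0.05, and 0 of 4 passed the adjusted threshold. With DESeq2, 1 of the 4 megakaryocyte and 1 of the 6 macrophage markers passed it. Per 1000 CPM of macrophage markers, Hbegf was at 202, 202 and 187 CPM in the wild type and at 167, 181 and 183 CPM in the mutant hearts. It was lower in the mutant on that scale (exact permutation p = 0.1, two-sided, the smallest that 3 against 3 hearts allow). The marker sum that it was divided by was itself higher in every mutant heart. Nrg1 on the same scale was at 46.0, 43.7 and 30.1 CPM in the wild type and at 45.4, 42.8 and 44.1 CPM in the mutant hearts, so that wild type replicates 2 and 3 were level with the mutant hearts (exact permutation p = 0.8, two-sided). The part of these cell types in the levels of Nrg1 and Hbegf was not tested. The 8 cardiomyocyte markers summed to between 11755 and 15946 CPM in the wild type and between 13740 and 15550 CPM in the mutant, and Erbb4 per 1000 CPM of them was 2.76 ± 0.571 (SD, n = 3) in the wild type and 2.91 ± 0.197 (SD, n = 3) in the mutant. With all hearts 5 of these 8 markers were higher and 3 lower (median log2 fold change 0.12). Without wild type replicate 5, 2 were higher and 6 lower (median -0.08).

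**Figure D4:**
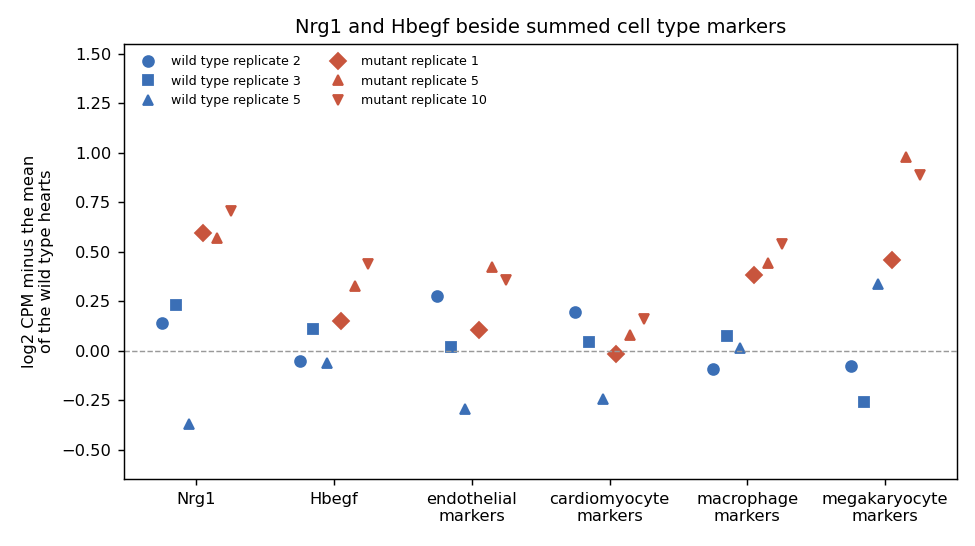
Log2 CPM of Nrg1, Hbegf and 4 summed marker lists in each heart, minus the mean of the wild type hearts. The mutant hearts (red) lie above all wild type hearts (blue) for Nrg1, Hbegf and the macrophage and megakaryocyte markers, and the groups overlap for the endothelial and cardiomyocyte markers.

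Markers of tissues outside the heart wall were uneven between libraries. Lung and foregut epithelial markers summed to 15.2 CPM in wild type replicate 5 and 13.8 CPM in mutant replicate 5 and to at most 3.13 CPM elsewhere, and hepatocyte markers summed to 739 CPM in wild type replicate 3 and to at most 19.6 CPM elsewhere. Wild type replicate 3, with the hepatocyte markers, was also the heart with the highest Egfr, at 13.7 CPM. That heart was the highest of its group for 5 of the 8 genes. Egfr was at 7.42 CPM in wild type replicate 2. Nrg1, Nrg2, Hbegf and Erbb3 differed less between these hearts (3.20 and 3.001, 1.62 and 1.58, 14.8 and 13.2, and 27.5 and 26.0 CPM in replicates 3 and 2). Of the hearts with the most epithelial marker RNA, wild type replicate 5 had the lowest Egfr of its group, at 5.86 CPM, and mutant replicate 5 the highest of its group, at 10.8 CPM. The part of this RNA in the receptor levels was not tested.

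The other ligands of the EGF family ranged from Tgfa, at 4.25 to 6.64 FPKM, to genes with too few counts to be tested. Of 7 listed, Nrg3, Ereg and Epgn were the latter, and of the 4 tested 2 were higher and 2 lower. Without wild type replicate 5, 3 of these 4 were higher and 1 lower. Tgfa, the ligand with the smallest p, was at 8.56, 10.1 and 8.43 CPM in the wild type and 10.1, 13.1 and 11.0 CPM in the mutant hearts (log2 fold change 0.34 ± 0.15 SE, unadjusted p = 0.0506, adjusted p = 0.874 by edgeR). Areg, a known target of WT1 in other cells, had 3 to 22 counts a library and a log2 fold change of -0.88 ± 0.69 (SE, adjusted p = 0.985 by edgeR). Proteases and cofactors of ligand release, such as Adam17 and Adam19, showed no member at an unadjusted p under 0.05 among 11 tested (9 higher, 2 lower, median log2 fold change 0.06), and the smallest p was that of Cd9, which binds the precursor of HB-EGF (0.24 ± 0.13 SE, unadjusted p = 0.103, adjusted p = 0.939 by edgeR). Without wild type replicate 5 the direction of this list turned, with 5 higher and 6 lower, a median of -0.02 and 2 of 11 at an unadjusted p under 0.05.

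Further down the pathway, most of the genes at an unadjusted p under 0.05 were genes induced by ERK. Of 18 such genes tested, 15 were higher and 3 lower, with a median log2 fold change of 0.16, and 5 had an unadjusted p under 0.05, each higher in the mutant, where 3.14% of all genes lay. None passed the adjusted threshold. Egr1, an early response transcription factor, was at 11.6, 14.4 and 11.6 CPM in the wild type and at 22.5, 17.95 and 16.8 CPM in the mutant hearts (0.61 ± 0.15 SE, unadjusted p = 0.00403, adjusted p = 0.488 by edgeR). The other 4, chosen for their p after the values were seen, were Fos (log2 fold change 0.80), the feedback inhibitors Spry4 (0.42) and Spry1 (0.35), and Ier3 (0.35). Smaller values were seen for other genes of the list, such as Spry2 (0.04), Dusp6 (0.12) and Etv4 (-0.07). In the 6 fits with a heart left out, 2 to 5 of the 18 had an unadjusted p under 0.05, the 2 being without mutant replicate 10, and the median stayed between 0.11 and 0.24. These genes answer to many receptors and to the handling of tissue, and their relation to the ErbB receptors was not tested.

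Inhibitors of the receptors and signal carriers gave 1 such gene, where 5.73% of all genes lay. Of 14 genes for receptor inhibition and turnover, 11 were higher (median log2 fold change 0.09), and Lrig1, which promotes the degradation of ErbB receptors, was the one with an unadjusted p under 0.05. It was at 65.4, 57.3 and 56.2 CPM in the wild type and at 68.2, 70.1 and 77.5 CPM in the mutant hearts (0.27 ± 0.11 SE, unadjusted p = 0.0327, adjusted p = 0.827 by edgeR). Of 29 adaptors and kinases, 23 were higher (median 0.09) and 0 had an unadjusted p under 0.05, with the smallest p for the adaptor Crk (0.21 ± 0.10 SE, unadjusted p = 0.0593, adjusted p = 0.904 by edgeR). Without wild type replicate 5, 5 of the 14 inhibition and turnover genes were higher and 9 lower (median -0.03), and 18 of the 29 adaptors and kinases were higher and 11 lower (median 0.04), with 3 of the 29 at an unadjusted p under 0.05. The excess of higher genes among inhibitors thus rested on this heart.

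Genes that act with neuregulin in the endocardium and in trabeculation, 12 in all, had 8 higher and 4 lower members, with 2 at an unadjusted p under 0.05 in opposite directions, where 5.73% of all genes lay. Their median log2 fold change was 0.09 with all hearts and 0.0076 without wild type replicate 5 (7 higher, 5 lower). Hey1, a Notch target, was at 32.5, 22.6 and 33.7 CPM in the wild type and at 22.1, 20.1 and 22.8 CPM in the mutant hearts (log2 fold change -0.45 ± 0.16 SE, unadjusted p = 0.0222, adjusted p = 0.765 by edgeR). Bmp10, a growth factor of trabecular cardiomyocytes, was at 167, 162 and 124 CPM in the wild type and at 186, 241 and 172 CPM in the mutant hearts, which did not overlap, like 11.2% of all genes (0.40 ± 0.17 SE, unadjusted p = 0.0418, adjusted p = 0.847 by edgeR). Notch1, Dll4 and Efnb2, which act upstream of Nrg1 in the endocardium, had log2 fold changes of 0.24, 0.15 and 0.16 and overlapping groups. Wild type replicate 5 had the lowest Notch1 and Efnb2 of all hearts, at 27.2 and 68.9 CPM, and the highest Dll4, at 17.7 CPM.

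**Figure D5:**
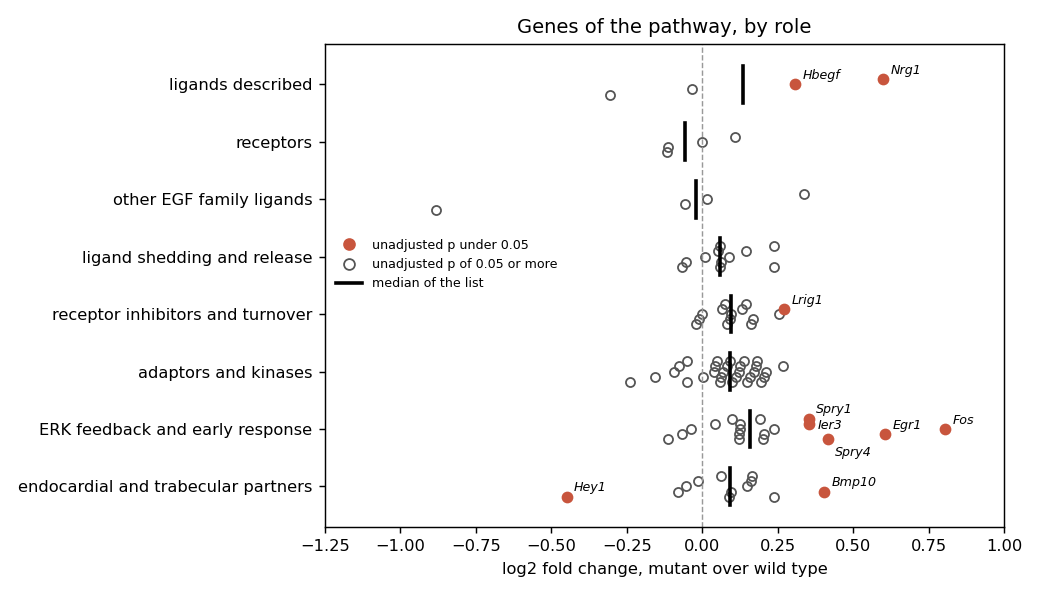
Log2 fold change of mutant over wild type hearts for each gene tested in 8 lists of the pathway, with the median of each list as a black bar and genes at an unadjusted p under 0.05 (edgeR) filled and named. Each list has its median within 0.16 of 0, and 5 genes induced by ERK, Lrig1, Bmp10, Nrg1 and Hbegf lie to the right as filled symbols, with Hey1 to the left.

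The genes whose CPM followed each of the 8 most closely over the 6 hearts were found by Pearson's r of log2 CPM among 11795 genes, given as a description since 6 hearts share depth and composition. Nrg1 was followed by Fam169a (r = 0.997), Ctnna3 and Mllt3, and 74 genes had r over 0.95. For Hbegf these were Fzd6 (0.987), Ube2j1 and Tbc1d14, with 42 over 0.95. Erbb4 had 731 genes over 0.95, led by Pitpnm2 (0.997), Plxna1 and Setd1b, and Erbb3 had 255, among them Nasp (0.995) and Phlpp2, both receptors being lowest in wild type replicate 5. Erbb2 (Gm9769, Slc9a8 and Wwox), Egfr (Clptm1l, Cog7 and Rnf150), Nrg2 (Art3, Ypel4 and Hbb-bh1) and Nrg4 (Rpl10-ps1, Pgk1-rs7 and Cd302) had 10 to 17 genes each over 0.95.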

How the data were processed

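Whole-heart RNA was sequenced by the authors as paired-end TruSeq libraries, 1 heart each. Reads were trimmed with Trim Galore and aligned to mm10 with STAR, and the study's methods name featureCounts with GENCODE M19 for counting, whereas the submitters' processing notes name HTSeq, so the counter is uncertain. The methods state that uniquely mapped reads were used, and the strand setting is not given in the sources used here. The authors deposited gene counts, which were tested here, and FPKM values made from the same counts. Both tables exist with and without annotation and were identical, and the authors' table of group means was not used. Genes passing edgeR's filterByExpr (minimum count 10, minimum total 15) were kept, scaled by TMM and compared by the quasi-likelihood test (R 4.3.3, edgeR 4.0.16), two-sided, Benjamini-Hochberg threshold 0.05. DESeq2 1.42.0 and limma 3.58.1 were alternatives. Intervals are 95% from the fit. Levels within a heart were compared by exact permutation tests. The scripts were tested on simulated counts. Named are the 8 genes, for each pathway list the gene with the smallest p unless some passed the threshold, Areg, and the 3 genes most correlated with each of the 8, of which 1 is not reported here. Other genes are named as examples chosen after their values were seen. The genes and lists were chosen with earlier results of these data known. Positions are from GENCODE M21 on GRCm38. Depth was 44244665 to 56373393 counts a library, and counts per gene are given where they limit precision.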

Additional observations from a re-analysis of the deposited data

How the results depend on the processing

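No gene passed the adjusted threshold of 0.05 in the edgeR fit, and the number was 133 with DESeq2, 34 without a filter on low counts, 6 after removing the trend with gene length and 0 to 44 with a heart left out, the 44 being without wild type replicate 5, while DESeq2 without that heart, chosen after seeing the data, gave 447. None of the 8 genes passed in any of these alternatives. Nrg1 and Hbegf were higher in the mutant in all 18 alternatives (log2 fold change 0.36 to 0.72 and 0.24 to 0.38, adjusted p at least 0.391 and 0.421, unadjusted p under 0.05 in 17 and 10 of them), and Nrg2 and Erbb2 were lower in all 18. The log2 fold change of Nrg4 (-0.04) was 0.065 with limma-voom, 0.29 with Xist as a covariate, 0.0024 after removing the length trend, -0.34 to 0.26 with a heart left out and 0.26 with DESeq2 without wild type replicate 5. It could not be computed with the filter of at least 1 CPM in 3 hearts. Egfr (-0.00) was 0.053 with limma-voom, 0.024 and 0.048 on log2 FPKM with a pseudocount of 1 and 0.1, 0.0087 without a filter and -0.23 to 0.44 with a heart left out. With a heart left out, Erbb3 ranged from -0.33 to 0.034 and Erbb4 from -0.14 to 0.33, and Erbb4 was -0.14 with DESeq2 without wild type replicate 5. Per kilobase of annotated exons, an alternative added after seeing the data, the mean log2 difference of Hbegf minus Erbb3 was -0.21 and that of Nrg4 minus Nrg2 was -1.84, because the annotated exons of some genes are much longer than the deposited length. Among the pathway lists, Ier3 passed the threshold with DESeq2 without wild type replicate 5 (0.49 ± 0.12 SE, adjusted p = 0.00346). Elsewhere the cause was not tested. No paired analysis was possible because the labels record no pairing of mutant with wild type embryos. Counts of 23 to 48 for Nrg4 and 43 to 93 for Nrg2 limit what can be seen for these genes, and with 3 hearts a group an exact permutation test cannot go below 0.1.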
